A study of Caenorhabditis elegans with 6 samples.

Results

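The AMP-activated protein kinase (AMPK) subunit genes of *Caenorhabditis elegans* were followed in fed first-stage larvae (L1) and in embryos of mixed ages. All 9 genes given by symbol were found, *aak-1*, *aak-2*, *aakb-1*, *aakb-2* and *aakg-1* to *aakg-5*, out of 17118 genes read by a probe set that names 1 gene. They were read by 14 probe sets, and 4 of the 9 genes had more than 1. The main value of a gene is that of its brightest probe set by mean over the 6 arrays, and its other probe sets are given beside it. The set was chosen with results of this same comparison known, so its differences are given as a description and not as tests. Whether a gene is among those called by the fit over all genes is stated only to describe it.

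Each group held 3 Affymetrix arrays of the wild-type strain N2, the standard laboratory hermaphrodite strain, hybridised with biotin-labelled cRNA from 8 µg of total RNA. Per the labels, the fed L1 larvae hatched from eggs of bleached adults during 24 h in M9 buffer without food, and were then given HB101 *Escherichia coli* in liquid culture at 20 °C for 3 h, with 10 mg of bacteria per mL and 10 worms per µL. The mixed embryos came from bleached gravid adults grown on plates with the same bacteria, and the labels give their arrays as re-analysed from an older series. Stage, hatching in buffer, feeding, culture form and array set therefore cannot be told apart. For the L1 samples the source field says embryos, but titles and stage fields say L1 larvae. The titles of the embryo arrays carry the tag XX and differ from each other only in a final letter. No label says that replicates were separate cultures, so all errors and p-values cover only the spread among these samples. That spread may be technical.

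AMPK is a heterotrimer that senses low cellular energy. The alpha subunit carries the kinase and is switched on by phosphorylation of its activation loop, the beta subunit is the scaffold and can bind glycogen, and the gamma subunit binds AMP, ADP and ATP in competition. Once active, the complex favours pathways that yield ATP, such as fatty acid oxidation and autophagy, and restrains those that use it, such as fatty acid synthesis and growth through the kinase TOR. In *C. elegans* *aak-2* is known for its part in lifespan, dauer larvae and survival of starvation, and *aak-1* acts together with it in holding germline precursors quiescent when food is lacking.

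The values were RMA levels on the log2 scale, in which 1 unit corresponds to 2-fold. Array medians were 6.08 to 6.11 for L1 and 6.01 to 6.04 for embryos, and the number of arrays limits the precision. Arrays of a stage correlated at r = 0.9925 or more over probe sets, whose values are not independent of each other, and no pair of arrays was identical. As background level served 5.43, the maximum over 32 control probe sets for genes of bacteria and yeast, which were taken to be absent from the samples. The added hybridisation controls cre and bioD stood apart between the array sets. For cre, the mean was 11.79 on L1 arrays and 4.93 on embryo arrays for the 3′ probe set, and 11.60 and 4.16 for the 5′ probe set. For bioD, it was 9.29 and 4.18 for the 3′ probe set, and 8.57 and 4.07 for the 5′ probe set. The part of this gap in any result below was not tested. Among markers of the stages, 9 of 10 early embryo genes were lower in L1. The list mean was 5.38 to 5.44 on L1 arrays and 8.10 to 8.54 on embryo arrays. The other gene, *med-1*, was higher in L1 by 0.39. It and *tbx-37*, 1 of the 9, lay under the background level on all 6 arrays. All 6 intestinal markers were higher, with a list mean of 11.25 to 11.32 on L1 arrays and 6.83 to 6.99 on embryo arrays. Of the other marker lists, 4 of 6 neuronal genes were higher in L1 and 1, *unc-119*, was lower (-1.65). In body wall muscle 4 of 5 genes were higher. Of 4 sperm genes 3 were higher, led by *msp-31* at 7.10 in L1 and 5.14 in embryos. All 3 lay under the background level on every embryo array, and 1 of them, *spe-9*, also on 2 L1 arrays. The source of their signal in L1 was not tested. None of 5 yolk genes passed limma's test (adjusted p of 0.161 or more, and 0 at an unadjusted p under 0.05). Of these 5, 3 lay under the background level on all arrays, so this result says little about yolk genes. In these whole-animal RNA samples, more cells of a type and more RNA per cell cannot be told apart, and the part of tissue make-up in the differences below was not tested.

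The catalytic gene *aak-1* and the gamma genes *aakg-3* and *aakg-4* were the subunit genes that stood furthest apart between the stages, all higher in fed L1. The gamma gene *aakg-1* was also higher, *aak-2* and the beta gene *aakb-1* were higher by less (centred on ribosomal proteins, *aakb-1* turned to -0.071), *aakg-2* was lower, and *aakb-2* and *aakg-5* overlapped between the stages. With limma fitted to all genes at a Benjamini-Hochberg adjusted p under 0.05, 7 of the 9 genes were among those called, against 64.4% of all genes tested. Of them, 6 were higher in L1, against 33.2% of all genes, and 1 was lower, against 31.2%. For 7 of the 9, all arrays of one stage lay above all of the other, against 70.6% of all genes. These counts describe genes chosen on this contrast and nothing is read from them. The median difference of the 9 was 0.58, beside 0.05 for all genes tested. All 9 lay above the 25th percentile of mean level, so none would be lost to a filter on dim genes.

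**Figure D1:**
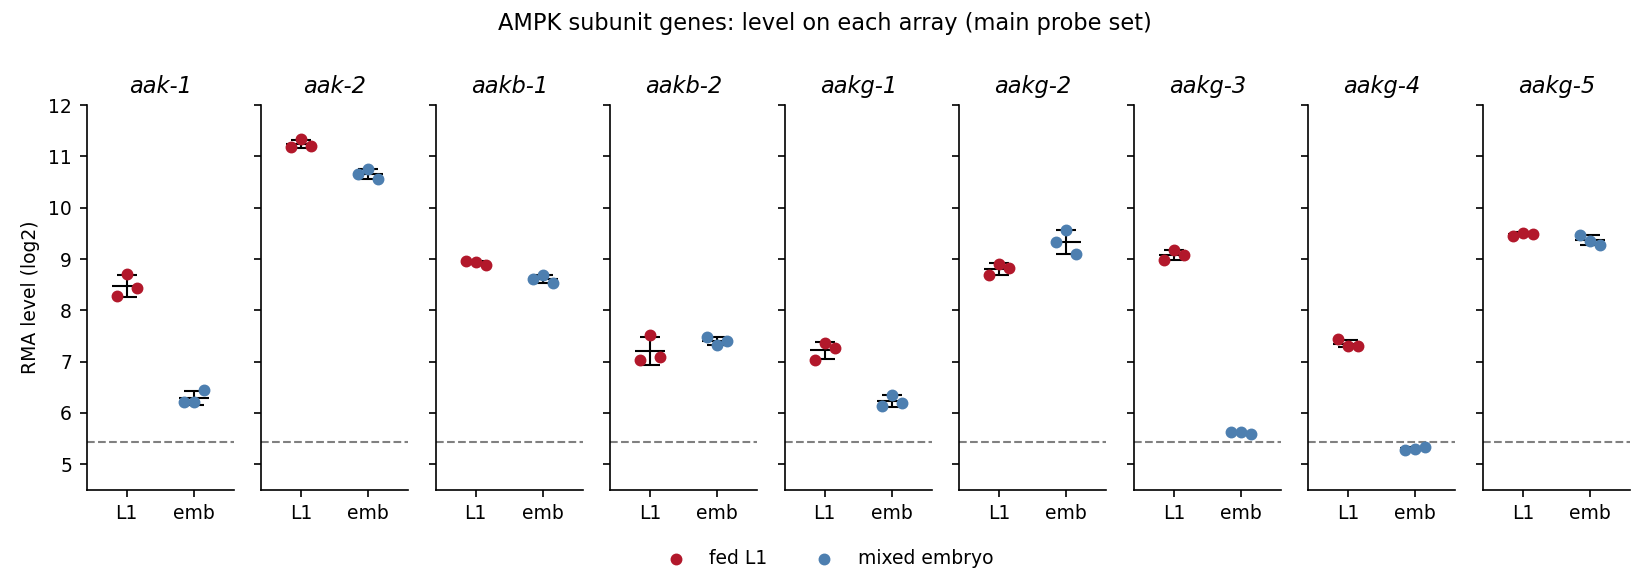
RMA level on the log2 scale (vertical axis) of each AMPK subunit gene's main probe set, with 1 point per array, fed L1 (red) left of mixed embryos (blue). Black marks are the mean ± SD (n = 3 per stage) and the dashed line is the highest foreign control value, 5.43. Panels are read within a gene only, since probe sets differ in response. The stages separate widely in *aak-1*, *aakg-3* and *aakg-4*, and overlap in *aakb-2* and *aakg-5*.

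Between the catalytic genes, the larger difference was that of *aak-1*. Its levels were 8.27, 8.70 and 8.44 on the L1 arrays, against 6.20, 6.21 and 6.45 on the embryo arrays. Every L1 array lay above every embryo array, and the difference was 2.18 (SE 0.12, n = 3 per stage), which is 4.53-fold with a 95% interval of 3.73 to 5.49. Of the genes tested, 6.81% had a larger rise. *aak-1* had a single probe set.

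The other catalytic gene, *aak-2*, was at 11.18, 11.33 and 11.21 in L1, against 10.66, 10.76 and 10.56 in embryos. Here too the stages did not overlap, but the difference was 0.58 (SE 0.09), or 1.50-fold. Its second probe set gave 8.86, 8.48 and 8.72 in L1 and 8.45, 8.27 and 8.40 in embryos, a difference of 0.31 (SE 0.11). Both probe sets of *aak-2* were thus higher in every L1 array, by less than *aak-1*. The stage difference of *aak-1* exceeded that of *aak-2* by 1.60 (SE 0.16 from the per-array differences), and by 1.51 to 1.73 when any 1 array was left out. 

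The beta genes, whose products hold the alpha and gamma subunits together, had small differences of opposite sign. *aakb-1* was at 8.95, 8.94 and 8.89 in L1, against 8.62, 8.68 and 8.53 in embryos. The L1 arrays were all above the embryo arrays, by 0.32 (SE 0.09), or 1.25-fold, and centred on ribosomal proteins the sign turned (-0.071). This gene had only a probe set whose design allows matches to related sequences. *aakb-2* was at 7.02, 7.52 and 7.09 in L1, against 7.48, 7.32 and 7.41 in embryos, so that L1 replicate 2 lay above all embryo arrays and the other two L1 arrays below them. Its difference of -0.19 (SE 0.13) had a 95% interval of -0.48 to 0.11. Without L1 replicate 2 it was -0.34 and among the genes called. The stage difference of *aakb-1* exceeded that of *aakb-2* by 0.51 (SE 0.17).

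The gamma genes, which encode the nucleotide-sensing subunits, differed most among themselves, and *aakg-3* had the largest difference of all subunit genes in these values. It was at 8.97, 9.17 and 9.08 in L1, against 5.62, 5.62 and 5.58 in embryos. The embryo levels lay just above the highest foreign control value, and the L1 levels far above it. The difference was 3.47 (SE 0.09), which is 11.06-fold with a 95% interval of 9.64 to 12.68, and 400 of the genes tested (2.34%) rose by more.

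*aakg-4* encodes an atypical gamma subunit whose gene is known as a target of the FOXO transcription factor DAF-16. Its levels were 7.43, 7.30 and 7.31 in L1, against 5.28, 5.29 and 5.34 in embryos. All 3 embryo arrays lay under the foreign control level of 5.43, so its difference of 2.04 (SE 0.08), or 4.13-fold, may be a lower bound.

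*aakg-1* had 3 probe sets, and the main one was at 7.03, 7.36 and 7.26 in L1, against 6.13, 6.35 and 6.20 in embryos. The stages were apart on every array, with a difference of 0.99 (SE 0.11), or 1.99-fold. The other probe sets of *aakg-1* gave 0.99 (SE 0.14) and 1.05 (SE 0.11), and the probe set at 1.05 lay under the foreign control level on all 3 embryo arrays. The difference of 1.05 may therefore be a lower bound. On all 3 probe sets of *aakg-1* the L1 arrays lay above the embryo arrays. Of the 14 probe sets, 2, both of them for this gene, carry a gene ID that the RefSeq annotation used here does not hold, and are assigned by symbol alone.

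*aakg-2* was the subunit gene with lower levels in L1. It is the gamma gene in which activating mutations have been used to switch on AMPK in worms. The main probe set, whose design allows matches to related sequences, gave 8.68, 8.90 and 8.83 in L1, against 9.33, 9.57 and 9.09 in embryos. Its second probe set gave 8.23, 8.15 and 8.18 in L1, against 8.46, 8.59 and 8.62 in embryos. On both, all L1 arrays lay under all embryo arrays, by -0.53 (SE 0.13) on the main and -0.37 (SE 0.09) on the second probe set, or 1.44-fold and 1.29-fold lower in L1.

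*aakg-5*, in contrast, was at 9.45, 9.52 and 9.49 in L1 and 9.47, 9.35 and 9.27 in embryos. The stages overlapped, and the difference of 0.12 (SE 0.09) had a 95% interval of -0.08 to 0.32. The second probe set of *aakg-5* gave 0.12 as well (SE 0.14), with a range of 7.66 to 8.03 in L1 and 7.62 to 8.06 in embryos. Centred on ribosomal proteins, the main value was -0.27 and among the genes called.

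**Figure D2:**
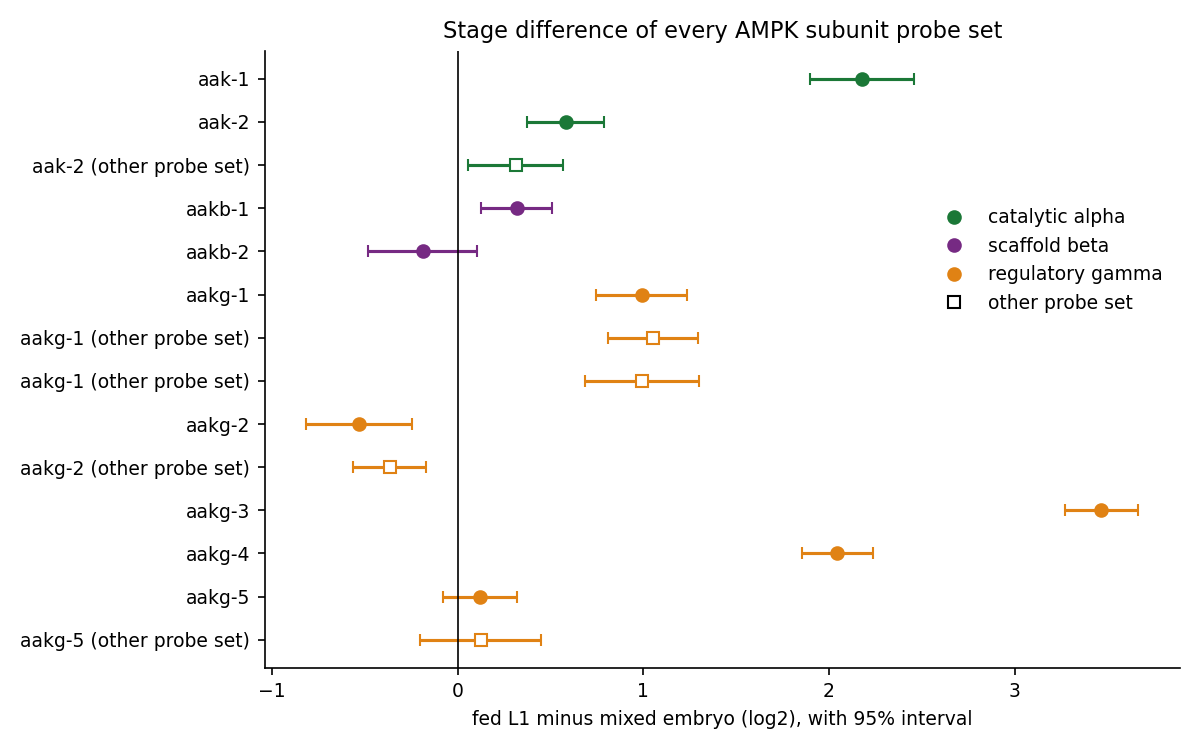
Difference of fed L1 minus mixed embryos on the log2 scale (horizontal axis) for each of the 14 AMPK subunit probe sets, with limma's 95% interval. Filled circles are main probe sets and open squares the other probe sets of the same gene, coloured by subunit class. The probe sets of each gene lie on the same side of 0, and the gamma genes span -0.53 to 3.47.

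Among the 10 pairs of gamma genes, stage differences lay 0.65 to 4.00 apart. The widest gap was between *aakg-3* and *aakg-2*, at 4.00 (SE 0.13), and the narrowest between *aakg-5* and *aakg-2*, at 0.65 (SE 0.14). Between *aakg-3* and *aakg-4*, both low in embryos, the gap was 1.42 (SE 0.10), and since *aakg-4* was at the foreign control level in embryos its size is uncertain. These gaps are taken within each array and do not depend on how arrays are centred. They set changes, not levels, of the probe sets side by side. Other steps did move some of the gaps. After another quantile normalization, that between *aakg-1* and *aakg-2* went from 1.52 to 1.35, and that between *aakg-4* and *aakg-5* from 1.92 to 1.74. Without probe sets whose names mark matches to related sequences, the widest gap went from 4.00 to 3.83. 

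The single differences do depend on centring. When arrays were centred on their ribosomal protein genes, the median of all genes moved by -0.39, and *aak-1*, *aakg-3* and *aakg-4* still differed by 1.79, 3.08 and 1.65. Under that scale *aakg-1* was at 0.60, *aakg-2* at -0.92 and *aakb-2* at -0.58, and all 3 were among the genes called. *aak-2*, at 0.19, was no longer among them.

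**Figure D3:**
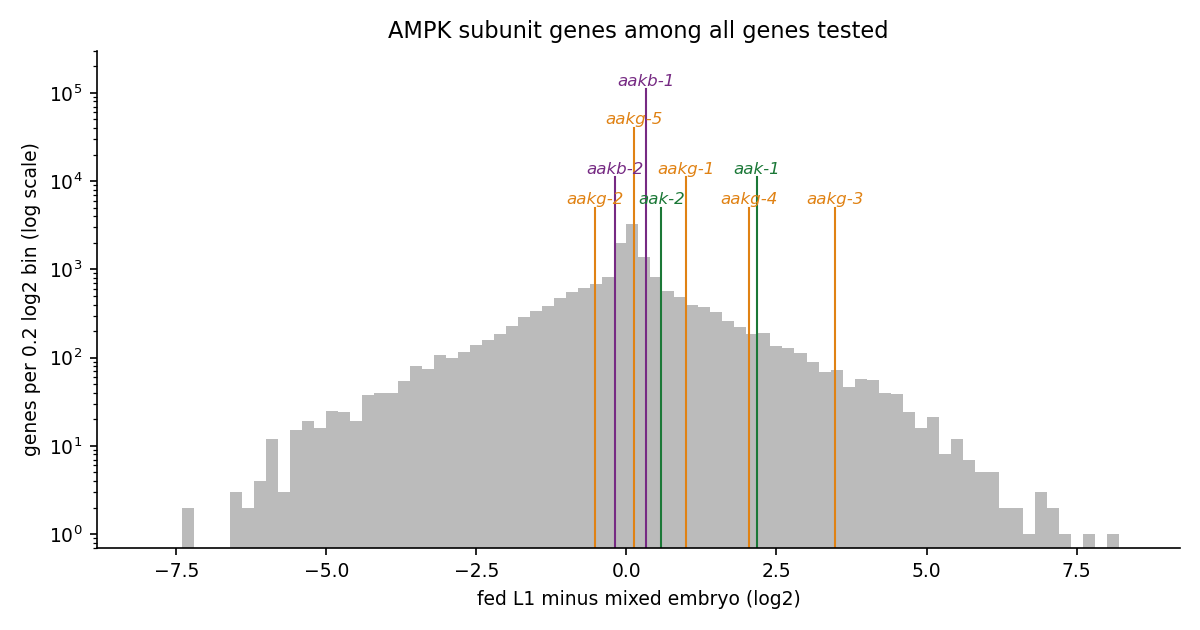
Number of genes (vertical axis, log scale) by difference of fed L1 minus mixed embryos (horizontal axis, log2, in bins of 0.2) over the 17118 genes tested, with the 9 AMPK subunit genes as vertical lines (green alpha, purple beta, orange gamma). Line height carries no value. *aakg-3* at 3.47, *aak-1* at 2.18 and *aakg-4* at 2.04 lie in the right tail, and the other 6 lie between -0.53 and 0.99.

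Spread within a stage was small for most subunit genes, with SDs of 0.02 to 0.27. The widest was that of *aakb-2* in L1. On the main probe sets, L1 replicate 2 held the highest L1 value for 7 of the 9 genes, and L1 replicate 1 for the other two, *aakb-1* and *aakg-4*. Over the main probe sets of all genes tested, L1 replicate 2 held the highest L1 value for 38.5%. On all 5 other probe sets of the subunit genes, however, L1 replicate 2 held the lowest L1 value. The matching share over the other probe sets of all genes was not taken, so nothing is read from that count. In the RefSeq annotation of assembly WBcel235, 5 of the 9 genes lie on the X chromosome (*aak-2*, *aakb-1*, *aakg-2*, *aakg-3* and *aakg-4*), as do 13.8% of the genes tested. The X-linked genes include both the largest rise and the decrease. *aak-1*, *aakb-2* and *aakg-1* lie on chromosome III and *aakg-5* on chromosome II.

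For the 3 genes that differed by at least 1 log2 unit, the genes with the most similar profile were taken over the 6 arrays, as the root mean square distance between values centred on each gene's mean. For *aak-1* these were *ttr-31* (distance 0.06) and *nadk-1* (0.07), which were higher in L1 by 2.22 and 2.19. The nearest to *aakg-3* were *pgp-9* (0.04) and *cah-3* (0.06), with differences of 3.50 and 3.44, but both lay under the foreign control level on all 3 embryo arrays, where *aakg-3* lay just above it. *tag-10* (0.04) and *snt-7* (0.05) were nearest to *aakg-4*, at 2.08 and 2.10. *snt-7*, like *aakg-4*, was under the foreign control level on all 3 embryo arrays. For genes at that level the differences may be lower bounds, and the distance compares the measured values only. With close replicates the distance mostly reflects the stage difference, so the similar differences of the nearest genes follow from the ranking. A distance under 0.2 was found for 276 genes from *aak-1*, 170 from *aakg-3* and 569 from *aakg-4*, so these are a few among many.

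Genes around AMPK were counted in 6 lists of 76 different genes, of which 72 had a probe set that names 1 gene. *daf-15* and *unc-51* each stand in more than 1 list, so the list counts below add up to more than these totals. Of these 72, limma called 26 higher and 24 lower in L1, and 22 did not pass, with a median difference of -0.01. The share called was 83.3% of upstream kinases and partners, 80% of AMPK-related kinases, 69.2% of substrates and effectors, 42.9% of TOR genes, 70.8% of autophagy genes and 75% of adenylate and phosphagen genes, beside 64.4% of all genes tested. The lists were chosen with earlier results of these data known. Their counts, shares and adjusted p-values are therefore given as a description and not as tests or support. With so many genes called, the lists are described by direction and size.

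The upstream kinases went in opposite directions. *ckk-1*, which encodes the calcium/calmodulin-dependent kinase kinase, rose by 1.72 (SE 0.11; limma adjusted p = 1.64e-07), with means of 7.64 ± 0.17 in L1 and 5.92 ± 0.09 in embryos (SD, n = 3 per stage). *par-4*, the gene of the LKB1 kinase that phosphorylates the AMPK activation loop, fell by 1.65 (SE 0.16; limma adjusted p = 4.43e-06), with means of 5.46 ± 0.27 in L1 and 7.11 ± 0.25 in embryos. On this main probe set of *par-4*, 1 L1 array lay under the foreign control level, so the fall may be a lower bound. The 2 other probe sets of *par-4* gave 0.03 and 0.04, and their means were below that level for L1 and for embryos. So were the means of the other probe set of *ckk-1*, which gave 0.24.

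LKB1 works with the pseudokinase STRAD and the scaffold MO25. Of the 3 MO25-type genes, *mop-25.1* rose by 0.87 (SE 0.14), and a dim second probe set gave -0.01. *mop-25.2* fell by 0.65 (SE 0.13) and *mop-25.3* fell by 0.94 (SE 0.14). Just under the foreign control level lay 1 embryo array for *mop-25.1* and 1 L1 array for *mop-25.3*. The STRAD gene *strd-1* differed by -0.23 and just missed the threshold (limma adjusted p = 0.0502), and passed with some other settings. In all, 2 of these 6 genes rose, 3 fell and 1 did not pass.

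Of 5 genes of AMPK-related kinases, most of which are switched on by LKB1 in mammals, 3 rose, 1 fell and 1 did not pass. *kin-29*, a salt-inducible kinase gene that acts in sensory neurons, rose by 1.53 (SE 0.12), with 1.56 in its other probe set. *sad-1*, a gene of neuronal polarity and synapses, rose by 0.99 (SE 0.20), and *unc-82*, a NUAK-type gene of muscle thick filaments, rose by 0.76 (SE 0.13). *pig-1*, a MELK-type gene of asymmetric neuroblast division, fell by 1.96 (SE 0.09). *par-1*, the polarity kinase gene of the zygote, differed by 0.01, with a 95% interval of -0.43 to 0.45. Neither *pig-1* nor *par-1* had a value once probe sets that may also pick up similar genes were left out, and 0 genes of this list then fell. The largest limma adjusted p among the 4 that passed was 0.00112.

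Among 13 measured genes of AMPK substrates and effectors, 8 rose, beside 33.2% of all genes, 1 fell, beside 31.2%, and 4 did not pass. The list median was 0.40. *sbp-1*, the SREBP transcription factor gene of lipid synthesis, rose by 1.84 (SE 0.08), with means of 9.32 ± 0.03 in L1 and 7.48 ± 0.07 in embryos. *pod-2*, which encodes acetyl-CoA carboxylase, a classical AMPK substrate at the start of fatty acid synthesis, rose by 1.68 (SE 0.09). Its means were 9.48 ± 0.11 in L1 and 7.80 ± 0.07 in embryos. Both *sbp-1* and *pod-2* had only a probe set whose design allows matches to related sequences. *hosl-1*, the gene of hormone-sensitive lipase, fell by 0.21 (limma adjusted p = 0.0443), and its call was lost whichever of the 6 arrays was left out (-0.22 to -0.20). Centred on ribosomal proteins, 5 of this list rose and 4 fell.

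The list of TOR complexes and regulators had the lowest share of calls among the 6. It held 14 genes, and while 2 rose and 4 fell, 8 did not pass. Its median was -0.10, and 10 fell when arrays were centred on ribosomal proteins. *flcn-1*, the folliculin gene, fell by 1.06 (SE 0.12), and its other probe sets gave -1.14 and -1.96. *nprl-2*, of a complex that restrains TOR when amino acids are scarce, fell by 0.85 (SE 0.11). *sgk-1*, a kinase gene downstream of the second TOR complex, rose by 2.01 (SE 0.18; limma adjusted p = 3.18e-06). The TOR kinase gene itself, *let-363*, named here after its values were seen, differed by -0.07, with 0.63 in its other probe set.

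Most listed genes of autophagy, the degradation pathway that AMPK can start through the kinase ULK1, were lower in L1. A fall was called in 14 of 24 genes, beside 31.2% of all genes, and a rise in 3, beside 33.2%, and 7 did not pass. Without L1 replicate 1, L1 replicate 2 or embryo replicate B, 1 of the 24 rose. The list median was -0.48. *atg-10*, an enzyme gene of ATG12 conjugation, fell by 2.71 (SE 0.19) to the foreign control level in L1, so its size may be a lower bound. *epg-2*, whose product delivers P granule components to autophagy in embryos, fell by 2.47 (SE 0.08). *sqst-1*, the p62 adaptor gene, rose by 0.37 (SE 0.13; limma adjusted p = 0.0276), with 0.07 in its other probe set, and was not called without L1 replicate 1 (0.37), L1 replicate 2 (0.33), embryo replicate B (0.34) or embryo replicate C (0.26), and centred on ribosomal proteins it turned to -0.020. The ULK1 gene *unc-51*, named after its values were seen, differed by -0.16 and did not pass.

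The listed genes that handle adenine nucleotides and phosphagens, and so bear on the AMP level that AMPK reads, were mostly higher in L1. A rise was called in 8 of 12 measured genes, beside 33.2% of all genes, and a fall in 1, beside 31.2%, and the median was 0.49. The 3 that did not pass were ADP/ATP carrier genes at the foreign control level on all arrays. *argk-1*, which encodes an arginine kinase, rose by 4.60 (SE 0.11; limma adjusted p = 1.77e-10), with means of 10.25 ± 0.08 in L1 and 5.65 ± 0.17 in embryos. *ampd-1*, the AMP deaminase gene, rose by 2.54 (SE 0.10), and by 3.04 in its other probe set. *ZC434.8*, which encodes another arginine kinase, fell by 3.58 (SE 0.11), with 6.35 ± 0.06 in L1 and 9.93 ± 0.20 in embryos. Its only probe set may also pick up similar genes. With probe sets of that kind left out, *ZC434.8* had no value and 0 genes of this list fell. The adenylate kinase genes *F38B2.4* and *let-754*, named after their values were seen, rose by 0.86 (SE 0.13) and 0.62 (SE 0.10). Centred on ribosomal proteins, 5 rose and 3 fell.

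**Figure D4:**
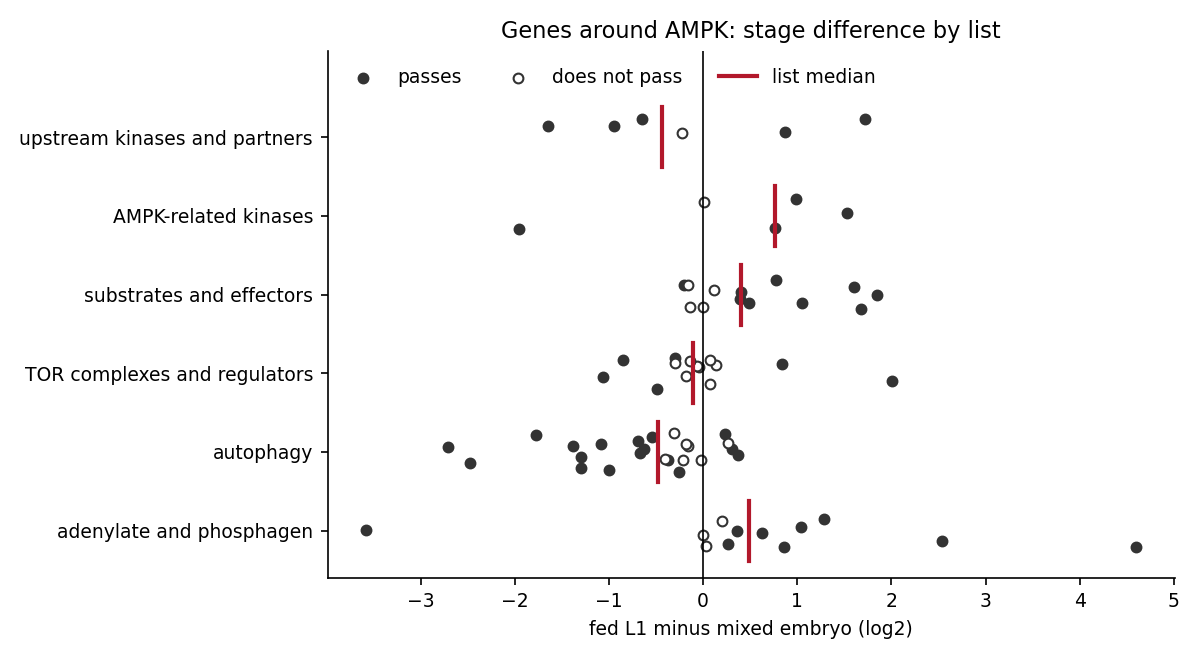
Difference of fed L1 minus mixed embryos on the log2 scale (horizontal axis) for each measured gene of 6 lists around AMPK (rows). Filled points passed limma's test over all genes, open points did not, vertical jitter carries no value and red bars are list medians. Autophagy genes lie mostly left of 0 (median -0.48) and genes of adenylates and phosphagens mostly right of it (median 0.49), with *argk-1* at 4.60 and *ZC434.8* at -3.58 as its ends.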

How the data were processed

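Total RNA of 3 fed L1 and 3 mixed embryo samples was measured on Affymetrix arrays. The deposited values are log2 expression levels, 1 per probe set and array, made by the authors with RMA, per the submitters' processing notes. RMA equalises the arrays after background correction and combines the probes of a set, so it hides a general change in RNA amount and compresses low values. Its version, and whether all 6 arrays were normalized together, are not given in the sources used here.

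Of 22625 probe sets, 77 controls were left out. Platform annotation gave 1 gene symbol to 20766 probe sets, several to 887 and none to 895. Only the first kind was used, and the brightest probe set stood for each of 17118 genes. Listed sequence names were matched to symbols through RefSeq locus tags. The model, fed L1 minus mixed embryo with no covariates, was fitted with limma 3.58.1 under R 4.3.3 (lmFit, eBayes, two-sided), and genes were called at a Benjamini-Hochberg adjusted p under 0.05 over all genes. SE is limma's moderated standard error, and gaps between 2 genes use the SD of per-array differences. All subunit genes are named, and every upstream and AMPK-related kinase gene. In other lists the named genes are the 2 largest calls of the more frequent direction and 1 of the opposite direction, and exceptions are marked. The members and lists were chosen with earlier results of these data known. The fit was tested on simulated data.

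Alternatives were another quantile normalization, centring on array medians or ribosomal proteins, array weights, a trended and robust eBayes, leaving out genes under the 25th percentile, averaging the probe sets of a gene, dropping probe sets whose names mark matches to related sequences, and leaving out each array.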

Additional observations from a re-analysis of the deposited data

How the results depend on the processing

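Under 14 alternatives, *aak-1* (1.79 to 2.28), *aakg-1* (0.60 to 1.08), *aakg-2* (-0.92 to -0.36), *aakg-3* (3.08 to 3.52) and *aakg-4* (1.65 to 2.07) kept their direction and their call. Centred on ribosomal proteins, *aak-2* was at 0.19 and not called, *aakb-1* turned to -0.071, *aakg-5* turned to -0.27 and was called, and *aakb-2* was called at -0.58. That scale alone gave 3742 genes higher and 10053 lower in L1, beside 5685 and 5339 in the values reported, and a share of higher genes of 27.1% beside 51.6%. *aakg-5* was also called at 0.29 after another quantile normalization. With 1 array left out, *aakb-2* ranged from -0.34 to -0.095, and was called only without L1 replicate 2.

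List counts moved by more than 1.5 times as follows. Centred on ribosomal proteins, 5 substrate and effector genes rose and 4 fell, 10 TOR genes fell, 0 autophagy genes rose, and 5 adenylate and phosphagen genes rose and 3 fell; *sqst-1* turned to -0.020. With array medians 1 autophagy gene rose. The fall of 1 substrate gene (*hosl-1*) became 0 after quantile normalization, with trend and robust settings, without genes under the 25th percentile and, for a range of 0 to 0, with any array left out. Without some arrays 1 to 3 autophagy genes rose. Without probe sets whose names mark matches to related sequences, *aakb-1* had no value, 0 AMPK-related kinase genes fell, 5 substrate genes rose, and 4 adenylate and phosphagen genes rose and 0 fell, with fewer genes measured. No paired analysis was possible because the L1 arrays are numbered and the embryo arrays lettered. The signal over background limits *aakg-4*, whose embryo level lies within that of foreign controls.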
